A study of Mus musculus with 4 samples.

Results

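The protein kinase C (PKC) and protein kinase D (PKD) genes were examined in the bulk transcriptome of T8 leukemia cells. The 10 genes were taken by name: *Prkca*, *Prkcb*, *Prkcd*, *Prkce*, *Prkch*, *Prkci*, *Prkcq*, *Prkcz*, *Prkd2* and *Prkd3*. They are 10 of 55359 genes in the count table, and were chosen with earlier results of these data known. *Prkd1*, of the same family, is given beside them. T8 is a B-cell progenitor leukemia line grown from a single primary tumor of an *Irf4*-/- mouse, and it carries an acquired *Jak3* mutation. Both groups share this background. EV-RV cells received a retrovirus coding for GFP alone, and IRF4-RV cells one coding for GFP and IRF4. RNA of cells still viable was taken 24 h later, giving 2 libraries per group, described by the submitters as biological replicates. The titles and the tissue label name T8, whereas the protocol text names T11. The libraries were used as T8. Whether GFP+ cells were sorted before RNA extraction is not given in the sources used here. The comparison asks which PKC and PKD transcripts differ once IRF4 is put back.

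PKC enzymes are serine/threonine kinases that act downstream of receptors coupled to phospholipase C. This enzyme cleaves a membrane lipid into diacylglycerol (DAG) and a messenger that releases calcium. Conventional isoforms (such as α and β) need DAG and calcium, calcium-independent isoforms (δ, ε, η, θ) need DAG alone, and atypical isoforms (ι, ζ) need neither. PKD enzymes also bind DAG and are switched on by calcium-independent PKCs, so they relay the signal one step further. In B cells PKCβ links the B-cell receptor to NF-κB, and PKCδ is tied to B-cell tolerance.

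The libraries held between 31230223 and 37817752 counts. Counts of the replicates were further apart than read sampling alone gives (chi-square per degree of freedom 14.1 for EV-RV, 13.1 for IRF4-RV), so each library was kept as its own sample. *Irf4*, which checks the labels, had 8070 and 7600 counts under EV-RV and 95578 and 90693 under IRF4-RV. Reads were thus assigned to *Irf4* in *Irf4*-/- cells whose virus codes for GFP alone, and their source was not tested. Under IRF4-RV the counts do not separate vector from endogenous transcripts. Of 11 B progenitor markers, *Cd79a* and *Cd79b* were high in every library, while *Rag1* and *Rag2* had at most 1 count. At FDR 0.1 (false discovery rate, edgeR), *Ptprc* rose and *Vpreb1*, *Igll1* and *Dntt* fell. Levels are given as CPM, the count scaled to a fixed library total. The 11 markers summed to 3666.0 and 3801.5 CPM under EV-RV and to 2717.2 and 2683.7 CPM under IRF4-RV. The 12 T and NK cell markers summed to 45.5 and 46 CPM against 33.5 and 33.4 CPM, nearly all of it *Trac* and *Cd2*, with *Cd8a*, *Ncr1* and *Gzmb* at 0. The 11 myeloid markers summed to 0.839 and 0.634 CPM against 2.92 and 2.5 CPM. Of these *Ly6g* rose from 1 and 0 to 71 and 58 counts, and *Adgre1*, *S100a8* and *S100a9* were at 0. The 9 stromal markers set a library apart. They summed to 50.6 and 95.8 CPM under EV-RV and to 50 and 236.0 CPM under IRF4-RV, highest in replicate 2, with *Lum* and *Dcn* at no more than 2 counts. The line was established on ST2 stromal cells and later grew without them. The part of these markers in the results was not tested. The number of members called and the changes of *Prkch*, *Prkce* and *Prkcb* are also given without IRF4-RV replicate 2.

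The isoforms are alike in sequence, so it was checked whether their reads can be told apart. Exact runs shared by coding sequences are shown, since a short read there could fit more than 1 isoform. They are the longest run between PKD genes and the longest between calcium-independent isoforms. They were read from GENCODE M21 transcripts (GRCm38), are written 5′ to 3′ on the coding strand, and have no base marked.
*Prkd1* and *Prkd3*: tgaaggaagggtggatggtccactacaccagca
*Prkcd* and *Prkce*: ggcaaaggcagctttggcaaggt
*Prkcd* and *Prkcq*: gactttgggatgtgcaaagagaa
*Prkce* and *Prkch*: cccacgttctgtgaccactgtgg

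The 33-base run of *Prkd1* and *Prkd3* lies in the PH domain. The run of *Prkce* and *Prkch*, of 23 bases, encodes part of the cysteine-rich C1 domain that binds DAG. The other runs, both of 23 bases, encode the glycine-rich loop that holds ATP and the DFG motif of the kinase domain. No 50-base window was shared between genes of the families. Windows shared with any other gene made up 0% for *Prkca*, *Prkcd* and *Prkd3* and less than 1% for *Prkcb*, *Prkch*, *Prkci* and *Prkd2*, where *Prkch* had 0.266%. The share was 5.47% for *Prkce*, most often with the overlapping transcript *AC154542.1*, 4.47% for *Prkcq* and 14.8% for *Prkcz*, all of the latter with the processed pseudogene *Prkcz2*.

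Of the 10 members 9 were abundant enough to be tested, 5 rose and 1 fell at FDR 0.1 in edgeR's quasi-likelihood test. The genes that rose were *Prkca*, *Prkcd*, *Prkce*, *Prkd2* and *Prkd3*, and the gene that fell was *Prkch*. Among all 14637 genes tested, 29.7% were called, 16.0% as higher and 13.7% as lower. The median log2 fold change was 0.40 over the 9 members tested and 0.01 over all genes tested. Because the members were chosen with earlier results of these data known, comparisons of members with all genes are a description only. The CPM of the groups did not overlap for 8 of the 9 members, against 61.3% of all genes tested. Of all genes tested, 1006 were called with a larger rise than *Prkce* and 744 with a larger fall than *Prkch*. The number of members that rose depended on single libraries. It was 3 without IRF4-RV replicate 1, 6 without IRF4-RV replicate 2, 5 without EV-RV replicate 1 and 4 without EV-RV replicate 2, while 1 fell each time. When counts were scaled by library size only, 4 rose and 1 fell, and 37.8% of all calls were higher against 53.8% with TMM scaling. As this is bulk RNA, a change in the share of cells that express a gene cannot be told apart from a change of its level per cell.

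**Figure D1:**
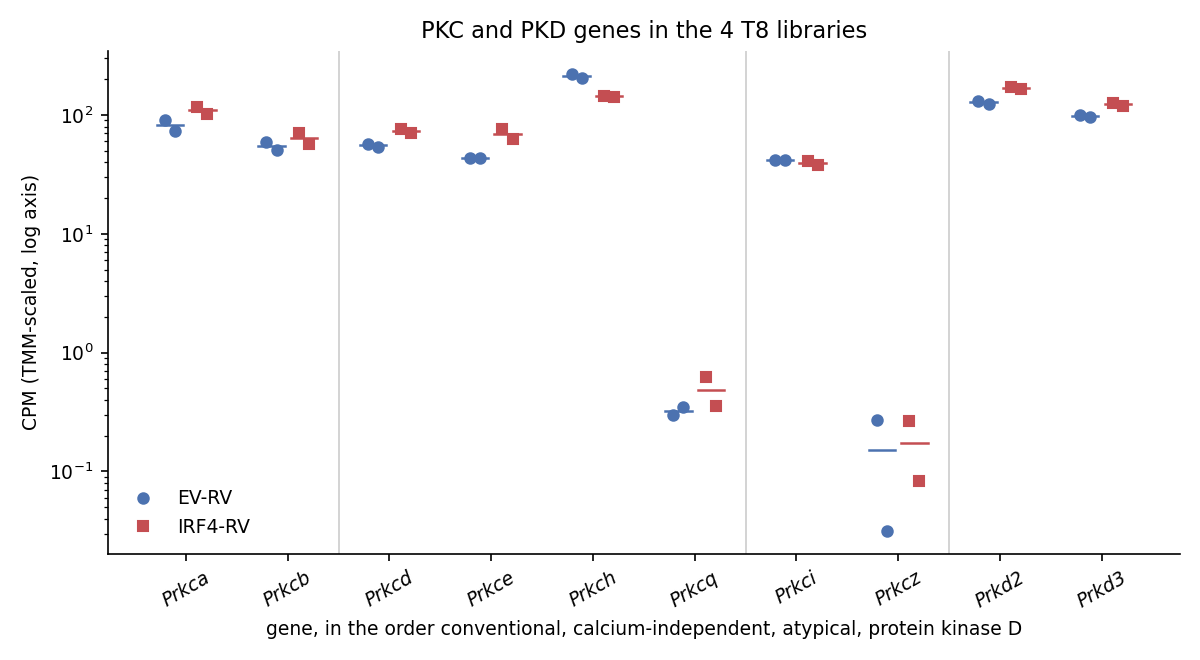
CPM of the 10 members in each of the 4 libraries, on a log axis, with circles for EV-RV, squares for IRF4-RV and a line at the mean of each group (n = 2). *Prkch* is the highest in EV-RV cells and falls under IRF4-RV, whereas *Prkcq* and *Prkcz* stay below 1 CPM.

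*Prkch* encodes PKCη, a calcium-independent isoform, and lies on the plus strand of chromosome 12 from 73584796 to 73778185 (GRCm38). Its counts were 7450 and 6452 under EV-RV against 4912 and 5154 under IRF4-RV, which correspond to 223.3 and 204.6 CPM against 145.0 and 141.6 CPM. Both IRF4-RV libraries lay well below both EV-RV libraries. The log2 fold change was -0.58 (standard error, SE, 0.0772, adjusted p = 0.00158 in edgeR), a level 0.67 times that of EV-RV cells. This fall was larger than the spread between replicates, and it was called whichever library was omitted, at values from -0.64 to -0.52. Without IRF4-RV replicate 2, the library with the most stromal RNA, it was -0.56.

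*Prkce* encodes PKCε, another calcium-independent isoform, and lies on chromosome 17 from 86167785 to 86657919 (plus strand). Its level was 43.5 and 43.4 CPM under EV-RV and 76.8 and 62.4 CPM under IRF4-RV. The EV-RV libraries were nearly equal, the IRF4-RV libraries differed more from each other, and the groups did not overlap. Of the members it rose most among those called, with a log2 fold change of 0.68 (SE 0.11, adjusted p = 0.00392 in edgeR), or 1.6-fold. It ranged from 0.50 to 0.83 with a library left out, and the highest value was without IRF4-RV replicate 2. *Prkce* shares 472 exonic bases with *AC154542.1* on the same strand, so that reads from there are ambiguous. Since *Prkch* and *Prkce* moved in opposite directions, the ratio of their levels per kilobase went from 4.95 and 4.55 to 1.82 and 2.19.

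*Prkcd* encodes PKCδ, also calcium-independent, and lies on the minus strand of chromosome 14 from 30595354 to 30626210. It was at 57.4 and 53.8 CPM under EV-RV and at 76.1 and 70.6 CPM under IRF4-RV, without overlap. The log2 fold change was 0.40 (SE 0.0846, adjusted p = 0.0125 in edgeR). It was called with each library left out, although the largest adjusted p was then 0.0992. *Prkcq* encodes PKCθ, which is best known from T cells. It had 10 and 11 counts under EV-RV and 21 and 13 under IRF4-RV, which is below 1 CPM throughout, and the lower IRF4-RV library nearly met the higher EV-RV library. Its log2 fold change of 0.58 had an SE of 0.515 (edgeR adjusted p = 0.474). A difference was not detectable at these counts.

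Of the conventional members, *Prkca* passed the test and *Prkcb* did not. *Prkca* (PKCα, chromosome 11, 107933387 to 108343928, minus strand) was at 90.6 and 73.9 CPM under EV-RV and at 116.7 and 102.6 CPM under IRF4-RV. The groups did not overlap, but replicate 1 was higher than replicate 2 in each group. The log2 fold change was 0.41 (SE 0.114, adjusted p = 0.0367 in edgeR). The call was lost without EV-RV replicate 2, at a log2 fold change of 0.28 and an adjusted p of 0.131, and without IRF4-RV replicate 1, at 0.30 and 0.126. It was also lost with library size only, at 0.32 and 0.124. *Prkcb* (PKCβ, chromosome 7, 122288751 to 122634402, plus strand) was at 59.1 and 50.9 CPM under EV-RV and at 70.4 and 57.4 CPM under IRF4-RV. Here the lower IRF4-RV library fell within the EV-RV range. The log2 fold change was 0.21 (SE 0.121, adjusted p = 0.256 in edgeR). It was past the threshold without IRF4-RV replicate 2, the library with the most stromal RNA, at 0.36 and an adjusted p of 0.0649. It was 0.04 (adjusted p = 0.899 in edgeR) without IRF4-RV replicate 1, 0.11 (0.627) without EV-RV replicate 2 and 0.32 (0.183) without EV-RV replicate 1.

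Neither atypical isoform was called. *Prkci* (PKCι, chromosome 3, 30995747 to 31052959, plus strand), which works with polarity proteins, had 1391 and 1310 counts under EV-RV and 1380 and 1374 under IRF4-RV. In CPM these were 41.7 and 41.5 against 40.7 and 37.7. IRF4-RV libraries were slightly lower, with a log2 fold change of -0.09 (SE 0.0873, adjusted p = 0.542 in edgeR). *Prkcz* (PKCζ, chromosome 4, 155260129 to 155361361, minus strand) was too low to be tested, with 9 and 1 counts under EV-RV and 9 and 3 under IRF4-RV. Its pseudogene *Prkcz2* (chromosome 7, 27882755 to 27884510, minus strand) had 21 and 7 counts under EV-RV and 21 and 5 under IRF4-RV. Both were higher in replicate 1 of each group, and the sequence that they share leaves the origin of the *Prkcz* counts uncertain.

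Both PKD genes expressed in T8 cells rose. *Prkd2* (PKD2, chromosome 7, 16842902 to 16870464, plus strand), the main PKD of lymphocytes, had 4417 and 3884 counts under EV-RV and 5841 and 6027 under IRF4-RV. Its level went from 132.4 and 123.2 CPM to 172.5 and 165.5 CPM, so that the groups lay well apart. The log2 fold change was 0.40 (SE 0.0766, adjusted p = 0.00787 in edgeR), and it was called with each library left out, between 0.35 and 0.45. *Prkd3* (PKD3, chromosome 17, 78949405 to 79020816, minus strand) went from 100.4 and 96.5 CPM to 126.9 and 118.6 CPM, again without overlap. Its log2 fold change was 0.32 (SE 0.0774, adjusted p = 0.0225 in edgeR). Without IRF4-RV replicate 1 the call was lost, at 0.25 and an adjusted p of 0.211. *Prkd1* (PKD1) had 1 count in EV-RV replicate 1 and 0 in the other libraries, where 3 counts correspond to between 0.0824 and 0.0952 CPM.

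**Figure D2:**
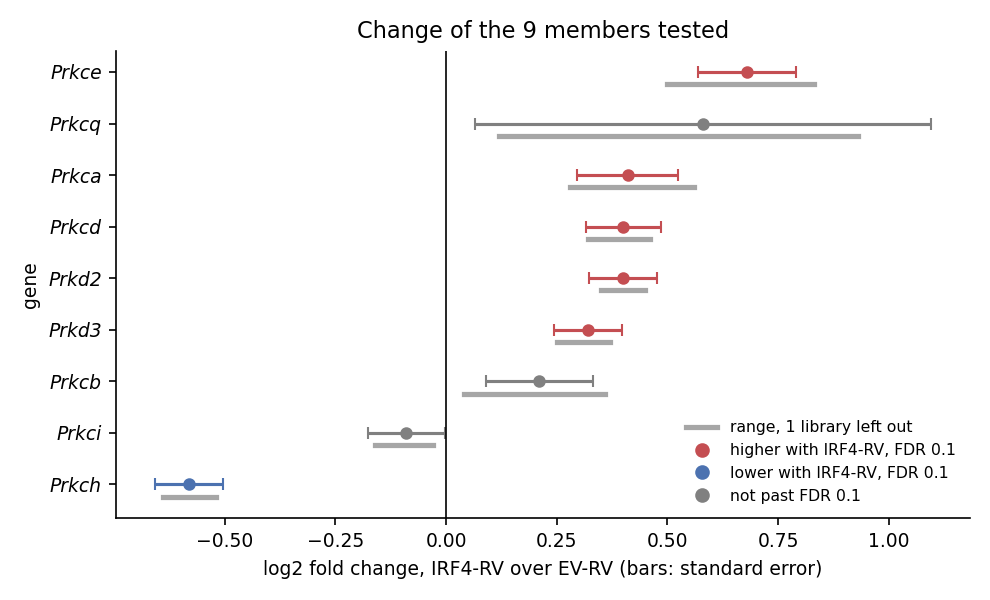
Log2 fold change of IRF4-RV over EV-RV for the 9 members tested (dots, with the standard error of the edgeR fit as bars) and the range with each library left out in turn (gray lines). *Prkch* at -0.58 is the lowest, *Prkce* at 0.68 is the highest of the 5 genes called higher, and the wide bar of *Prkcq* reflects counts between 10 and 21.

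Promoters were looked at because 5 members rose together. RefSeq gives 13 promoters for 8 of the 10 members. *Prkce* and *Prkch* had no entry. IRF4 binds DNA weakly alone and often pairs with an ETS factor such as PU.1. The composite ETS-IRF element (GGAA and GAAA on 1 strand with 2 free bases between them) and the interferon-stimulated response element (GAAA and GAAA, spaced alike) were searched on both strands of the 250 bases before each start. Neither was found in any of the 13. Only 2.3% and 2.98% of all 32851 promoters held them, so their absence from 13 does not set the members apart. The cores alone are common, with GGAA in 93.4% and GAAA in 86.4% of all promoters. They overlap where the letters run together. Shown are promoters of *Prkd2* and *Prkcd*, the members with an entry that rose with each library left out. The first is chr7:16842652-16842901 (plus strand) and the second chr14:30626209-30626458 (minus strand), on GRCm38, with GGAA or GAAA on either strand in capitals.
*Prkd2*: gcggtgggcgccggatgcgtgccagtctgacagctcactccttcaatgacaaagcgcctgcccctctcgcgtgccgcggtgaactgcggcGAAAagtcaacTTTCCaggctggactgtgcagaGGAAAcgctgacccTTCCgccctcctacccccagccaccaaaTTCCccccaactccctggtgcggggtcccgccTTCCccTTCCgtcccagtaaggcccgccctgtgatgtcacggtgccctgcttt
*Prkcd*: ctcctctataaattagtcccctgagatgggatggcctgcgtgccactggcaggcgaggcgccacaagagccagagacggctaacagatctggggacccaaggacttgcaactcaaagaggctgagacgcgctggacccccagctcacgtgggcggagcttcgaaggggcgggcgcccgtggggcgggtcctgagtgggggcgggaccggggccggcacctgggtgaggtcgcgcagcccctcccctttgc

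The *Prkd2* promoter shown holds 6 GGAA and 3 GAAA cores. A second one of the gene holds 5 and 1, but it overlaps the first, so that some cores are counted in both. The *Prkcd* promoter shown holds 0 of each, and a second one of the gene 2 and 1. These letters describe the windows and do not show binding.

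To compare genes with each other, CPM were divided by the length of all annotated exons in kilobases (RPKM). In EV-RV cells *Prkch* had the highest level with 28.4 ± 1.75 RPKM (SD, n = 2), followed by *Prkd2* with 25.3 ± 1.29 RPKM (SD, n = 2). *Prkcd*, *Prkca* and *Prkd3* came next at 10.0, 9.15 and 8.94 RPKM, and neighbors among these 3 overlapped between replicates. *Prkci* and *Prkcb* also overlapped at 7.5 and 7.19 RPKM, and *Prkce* was the lowest of the 8 genes above 1 RPKM, at 5.98 RPKM. In IRF4-RV cells *Prkd2* came first with 33.5 ± 0.969 RPKM (SD, n = 2) and *Prkch* second with 19.0 ± 0.326 RPKM (SD, n = 2), and *Prkce* had passed *Prkcb* and *Prkci* at 9.59 RPKM, overlapping *Prkcb*. With the longest transcript as length, *Prkch* and *Prkd2* changed places in the same way, but *Prkcb* moved to rank 5 in both groups. *Prkcq*, *Prkcz* and *Prkd1* were below 0.2 RPKM in every library.

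The share of each gene in the summed level of the family was also compared. *Prkch* held 27.8% and 27.6% of the summed level under EV-RV and 16.2% and 17.2% under IRF4-RV. *Prkd2* held 24.5% and 24.8% under EV-RV and 28.7% and 29.9% under IRF4-RV. In group means *Prkch* was 11 percentage points lower, while *Prkd2* was 4.66, *Prkce* 2.54, *Prkcd* 1.8, *Prkca* 1.77 and *Prkd3* 1.04 points higher. By class, the calcium-independent isoforms went from 43.1% and 43.6% to 36.7% and 36.7%, even though *Prkcd* and *Prkce* rose. PKD went from 33.1% and 33.7% to 38.4% and 39.7%. Conventional isoforms went from 16.7% and 15.2% to 18.7% and 17.4%, and atypical isoforms from 7.07% and 7.61% to 6.21% and 6.22%. None of the 4 classes overlapped between groups. With 2 libraries per group the exact two-sided permutation test cannot go below p = 0.333, which all 4 classes reached, so these shares are a description without a call. The sum over the family was 106.8 and 98.5 RPKM under EV-RV and 119.0 and 109.5 RPKM under IRF4-RV (exact permutation p = 0.333).

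**Figure D3:**
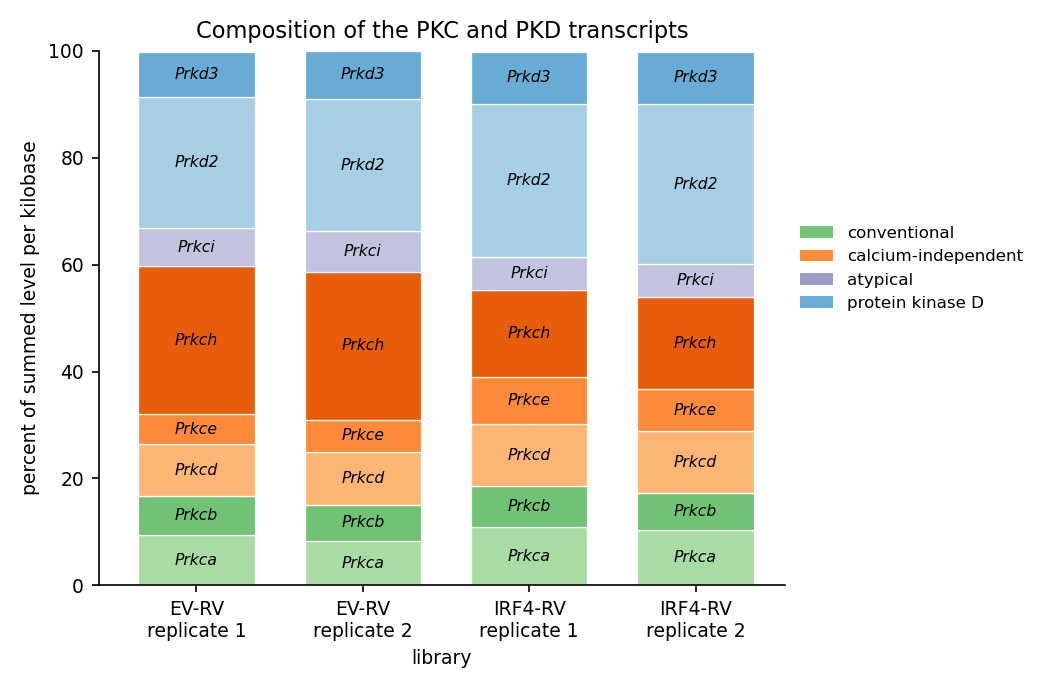
Percent of the summed PKC and PKD level per kilobase held by each gene in the 4 libraries, colored by class and leaving out genes below 1%. The *Prkch* segment shrinks from 27.8% and 27.6% to 16.2% and 17.2%, and the *Prkd2* segment grows.

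Lists of 87 pathway genes were followed, of which 70 were tested, 11 rose and 8 fell. These 19 calls were no larger a share of the genes tested in the lists than the 29.7% called among all genes tested. The calls below describe single genes. The median log2 fold change was 0.09 over the 70 pathway genes tested and 0.01 over all genes tested.

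Enzymes that make and remove DAG moved in both directions. Among 6 phospholipase C genes tested, 2 rose and 0 fell in edgeR (0 also at an unadjusted p under 0.05 and in DESeq2). *Plcd3* had 149 and 194 counts under EV-RV and 456 and 453 under IRF4-RV, a log2 fold change of 1.29 (SE 0.167, adjusted p = 0.00139 in edgeR). *Plcg1*, the isoform used by T-cell receptors, went from 64 and 46 to 111 and 153 counts, a log2 fold change of 1.14 (edgeR adjusted p = 0.0143). *Plcg2*, the main isoform downstream of the B-cell receptor, was not called, at 0.996 times the EV-RV level (edgeR adjusted p = 0.974). DAG kinases end the signal by converting DAG to phosphatidic acid, and of 6 tested 2 rose and 1 fell. *Dgka* was at 13.2 and 12.3 CPM under EV-RV and at 35.5 and 35.6 CPM under IRF4-RV, a log2 fold change of 1.48 (SE 0.0963, adjusted p = 4.27e-05 in edgeR). On the log2 scale *Dgkd* rose by 0.23 (edgeR adjusted p = 0.088) and *Dgkz* fell by 0.53 (edgeR adjusted p = 0.00194). The level of *Dgkz* went from 135.3 and 136.7 CPM to 92.5 and 96.4 CPM. Of 6 other DAG receptors tested, only *Rasgrp3* was called. This Ras activator of B cells had 32 and 35 counts under EV-RV and 100 and 99 under IRF4-RV, a log2 fold change of 1.45 (edgeR adjusted p = 0.00629).

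Priming factors bring PKC into its active form and phosphatases reverse this. Of 11 such genes 2 rose and 2 fell. *Mtor*, the kinase of a complex that phosphorylates the PKC tail, was at 274.2 and 214.5 CPM under EV-RV and at 461.5 and 394.3 CPM under IRF4-RV. Its log2 fold change was 0.81 (SE 0.128, adjusted p = 0.00349 in edgeR). *Phlpp1*, a PKC phosphatase, rose by 0.41 (edgeR adjusted p = 0.0846). The 7 genes not called included *Pdpk1*, the kinase of the activation loop (edgeR adjusted p = 0.516). Of 3 anchoring genes tested, edgeR called 0, while 1, *Rack1*, had an unadjusted p under 0.05 and DESeq2 called 1.

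Downstream, 1 of 10 genes of the NF-κB arm rose and 0 fell in edgeR. At an unadjusted p under 0.05, 3 were higher and 0 lower, and DESeq2 called 2 higher and 0 lower. *Malt1*, a protease of NF-κB signaling, went from 60.1 and 56.0 CPM to 83.7 and 75.1 CPM, a log2 fold change of 0.45 (edgeR adjusted p = 0.00953). Of 8 partners of atypical PKC, 2 rose and 1 fell. The scaffold *Sqstm1* rose by 0.46 (edgeR adjusted p = 0.00433). The polarity genes *Llgl2* and *Llgl1* changed by 0.52 and -0.36 (edgeR adjusted p = 0.0827 and 0.0158). Of 7 PKC substrates, 1 rose and 2 fell. *Plek*, which encodes pleckstrin, went from 21.1 and 21.4 CPM to 53.6 and 51.6 CPM, a log2 fold change of 1.31 (SE 0.087, adjusted p = 4.78e-05 in edgeR). *Add3* and *Marcksl1* fell by 0.35 and 0.28. Of 10 PKD substrates, 0 rose and 2 fell in edgeR, and the same counts came from an unadjusted p under 0.05 and from DESeq2. They were *Hdac4*, a class IIa histone deacetylase that fell by 0.59 (edgeR adjusted p = 0.0262), and *Col4a3bp*, a ceramide carrier that fell by 0.30 (edgeR adjusted p = 0.0481). Of 3 PKC-related kinases of the PKN type, edgeR called 0, as did DESeq2, and 0 had an unadjusted p under 0.05.

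**Figure D4:**
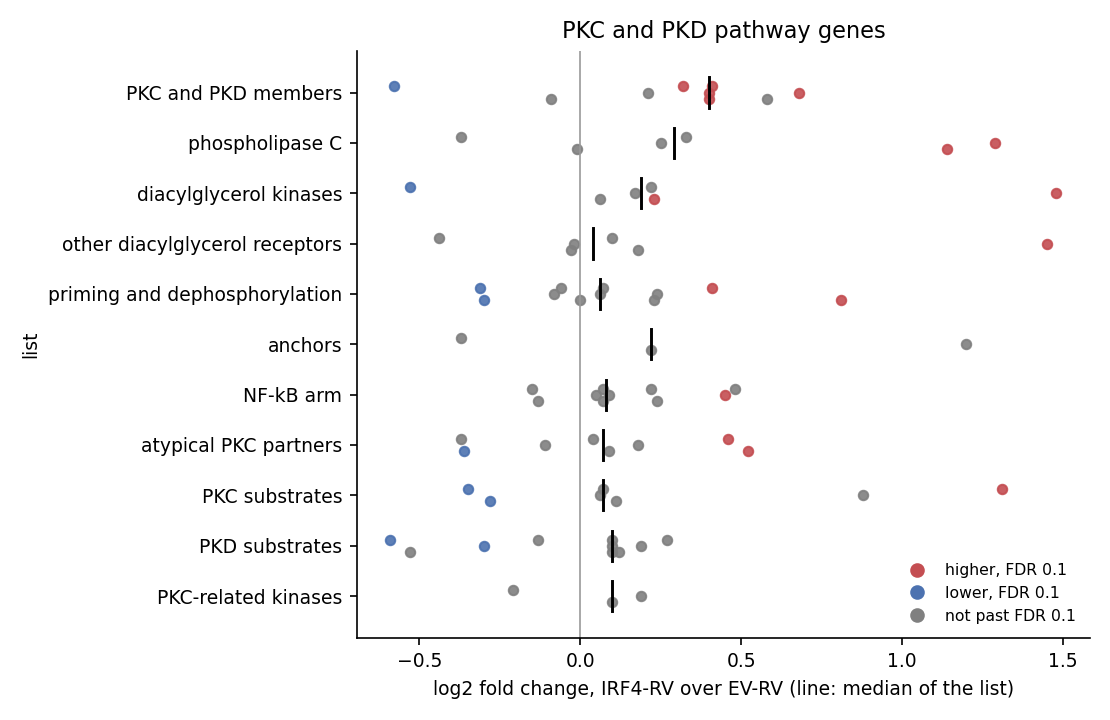
Log2 fold change of IRF4-RV over EV-RV for the 9 members tested and for 70 genes tested in 10 pathway lists, colored by the call at FDR 0.1, with a line at each list's median. The members have a median of 0.40 with *Prkch* alone on the far left, and the highest values in the lists are *Dgka* at 1.48, *Rasgrp3* at 1.45, *Plek* at 1.31 and *Plcd3* at 1.29.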

How the data were processed

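Bulk RNAseq of 4 T8 libraries was analyzed, 2 with EV-RV and 2 with IRF4-RV. The titles gave each library's group and replicate number. According to the paper's methods and the submitters' processing notes, the authors used STAR 2.4.0j for alignment, GRCm38 as genome and featureCounts for counting per gene. The deposited values are raw counts, without normalization. Settings for strand and multi-mapping reads are not given in the sources used here. Of 55359 identifiers 52083 matched GENCODE M21, which gave symbols, coordinates and exon lengths.

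Genes passing filterByExpr were tested with edgeR 4.0.16 in R 4.3.3 (TMM factors, quasi-likelihood F test, Benjamini-Hochberg adjustment over all genes, FDR 0.1 as in the paper's methods, no replicate block). CPM are counts over TMM-scaled library sizes. Floors of 3 counts cover counting error only. Standard errors come from the quasi-likelihood F test, so they include the spread between replicates. Counts were simulated for 14637 genes with 200 changed. Of changes of 1 and of 0.5 (log2), 73.1% and 43.4% were recovered, and 17% of calls were false, above the nominal FDR. The 200 are a smaller share of genes than the 29.7% called in the data, so these rates may not carry over. Alternatives were DESeq2 1.42.0, other scalings and filters, the replicate block, an FDR of 0.05 and leaving out each library. All members, *Irf4* and at most 3 called genes per list, those with the largest change, were named. Genes named beyond this rule (*Plcg2*, *Pdpk1*, *Rack1*) were chosen after their values were seen. The members and lists were chosen with earlier results of these data known. Some genes and 1 sequence that the rule would name are not reported here.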

Additional observations from a re-analysis of the deposited data

How the results depend on the processing

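With each library left out in turn, 3573 to 3646 genes were called, 3 to 6 members were higher and 1 lower, and 18 to 19 pathway genes were called. The range of the log2 fold change was then 0.28 to 0.56 for *Prkca*, 0.04 to 0.36 for *Prkcb* and 0.25 to 0.37 for *Prkd3*, the 3 members whose call changed. With library size only, *Prkca* was at 0.32 (adjusted p = 0.124). DESeq2, its size factors in edgeR, both other filters and an FDR of 0.05 each left 5 members higher and 1 lower. At an FDR of 0.05, 16 pathway genes were called, against 19 at 0.1. Over all alternatives the edgeR and DESeq2 adjusted p ranged from 1.65e-09 to 0.131 for *Prkca*, from 0.00847 to 0.899 for *Prkcb* and from 4.51e-06 to 0.211 for *Prkd3*, and no tested member changed direction.

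The replicate numbers are shared by the groups in the labels, but no label says that they mark a batch. Deviations of same-numbered libraries correlated over 14637 genes with r = 0.26. With the replicate block 6394 genes, 6 members higher, 1 lower and 32 pathway genes were called, and *Prkcb*, at 0.21, passed with an adjusted p of 0.00847. The cause of these changes was not tested. With 2 libraries per group, changes the size of that of *Prkcb* and genes with as few counts as *Prkcq* and *Prkcz* were at the limit of what could be detected.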
